A study of Mus musculus with 2 samples.

Results

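The ligands and receptors that steer growing axons were examined in sorted mesenchymal cells of the mouse large intestine. They comprised the semaphorins with their plexin and neuropilin receptors, the SLITs with the ROBOs, netrins with the UNC5 receptors, and the ephrins with the Eph receptors. Members were taken by gene symbol, and 68 symbols of these families were among the 32285 genes of both count tables. Of these, 57 had at least 50 UMIs (unique molecular identifiers, each marking 1 captured transcript) over both tables and were kept, against 15649 of all genes. The 11 below the minimum were Sema4f with 49 UMIs, Sema3g with 40, Sema5b with 17, Ntn5 and Plxnb3 with 9 each, Epha10 and Unc5d with 3 each, Robo3 with 2, Epha6 and Slit1 with 1 each and Epha8 with 0. Just inside it were Efna3 with 73 and Ephb1 with 125.

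Cells negative for CD45, EpCAM and CD31 and positive for gp38 (podoplanin) had been sorted from the large intestine and profiled by droplet 3' single-cell RNA sequencing. There was 1 library from C57BL/6 mice, named ff, and 1 from Balb/c mice, named GF. The design text speaks of colon from adult mice over 8 weeks old and from germ-free mice; ff is not spelled out, the labels give no genotype beyond the strain, and the sources used here do not say how many mice were pooled. Strain, housing and library therefore cannot be told apart, and no difference between ff and GF has a replicate check.

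These families were found through their action on nerve growth cones and are also known from blood vessels, epithelia and connective tissue. Class 3 semaphorins, SLITs and netrins are secreted, whereas the other semaphorins and the ephrins are attached to the cell surface. Class 3 semaphorins mostly act through a neuropilin that binds the ligand and a plexin that signals, SLITs bind ROBO receptors, netrins bind DCC, neogenin and UNC5 receptors, and ephrins bind Eph receptors on touching cells. In the intestinal epithelium, B-type ephrins and their receptors are known for keeping cell types in place along the crypt.

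The mesenchymal pool held 11901 ff cells and 12887 GF cells with median totals of 8902 and 6671 UMIs, and 107592187 and 89636567 UMIs in all. Levels are UMIs summed over cells per 1000000 UMIs (CPM), given as ff and then GF, and intervals are exact 95% intervals for counting error only. Over all retained cells, before any gate, podoplanin (Pdpn) stood at 267 and 317 CPM, Ptprc (CD45) at 5.25 and 34.1, Epcam at 2.62 and 0.753 and Pecam1 (CD31) at 4.09 and 6.58 CPM. The pool took 97.8% of the retained ff cells and 90.1% of the GF cells, and lymphocytes that had passed the sort numbered 107 in ff and 1230 in GF. Since the pool leaves out cells with markers of other types, its Ptprc, at 0.121 and 1.51 CPM, reflects that choice. The collagen gene Col1a1 stood at 1766 and 1763 CPM there. The 7 blood endothelial markers summed to 16.1 and 39.5 CPM. Clusters were made without the members and named from marker genes, which gave 3 Foxl1-high-like clusters, 3 lamina propria fibroblast-like, 4 of adventitial or submucosal type (called adventitial-like), 7 unnamed fibroblast-like, 1 smooth muscle-like and 1 small interstitial cell of Cajal-like cluster. Of these 19 clusters, the 17 that held 50 or more cells of both libraries are used where clusters are compared. Different clusters held most of the Foxl1-high-like class in each library: the Wif1-led cluster had 1323 ff and 138 GF cells, the Fgfbp1-led 263 and 747, and the Ptprr-led 529 and 146. The files shared 55 cell barcodes.

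Most of the 57 members were present in the pool at low or moderate levels, and 56 had at least 50 UMIs there. The exception was Robo4, a receptor of blood vessels, with 1 and 2 UMIs. In both libraries 26 reached 10 CPM and 5 reached 100 CPM, namely Sema3c, Slit3, Ntn1, Nrp1 and Nrp2, while 6 lay under 1 CPM. Robo2 missed that group in GF alone, with 113 and 98.5 CPM. A UMI is counted at the 3' end of a transcript, so levels do not scale with transcript length, but capture differs between genes and no order between genes is read from them. Of 52 members with at least 50 UMIs in each library, 24 had their highest level in the same of 17 clusters in both libraries, against 36.1% of all genes. By cell class, with the small Cajal-like cluster left out, 39 of the 52 were highest in the same class in both libraries, against 61.8% of all genes. Adventitial-like cells held the highest level of 13 (10.2% of all genes), lamina propria-like cells of 8 (6.65%), Foxl1-high-like cells of 7 (20.8%), smooth muscle-like cells of 7 (20.2%) and unnamed fibroblast-like cells of 4 (3.97%). For 26 of the 39 members the counting intervals set the highest class apart from the next in both libraries.

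**Figure D1:**
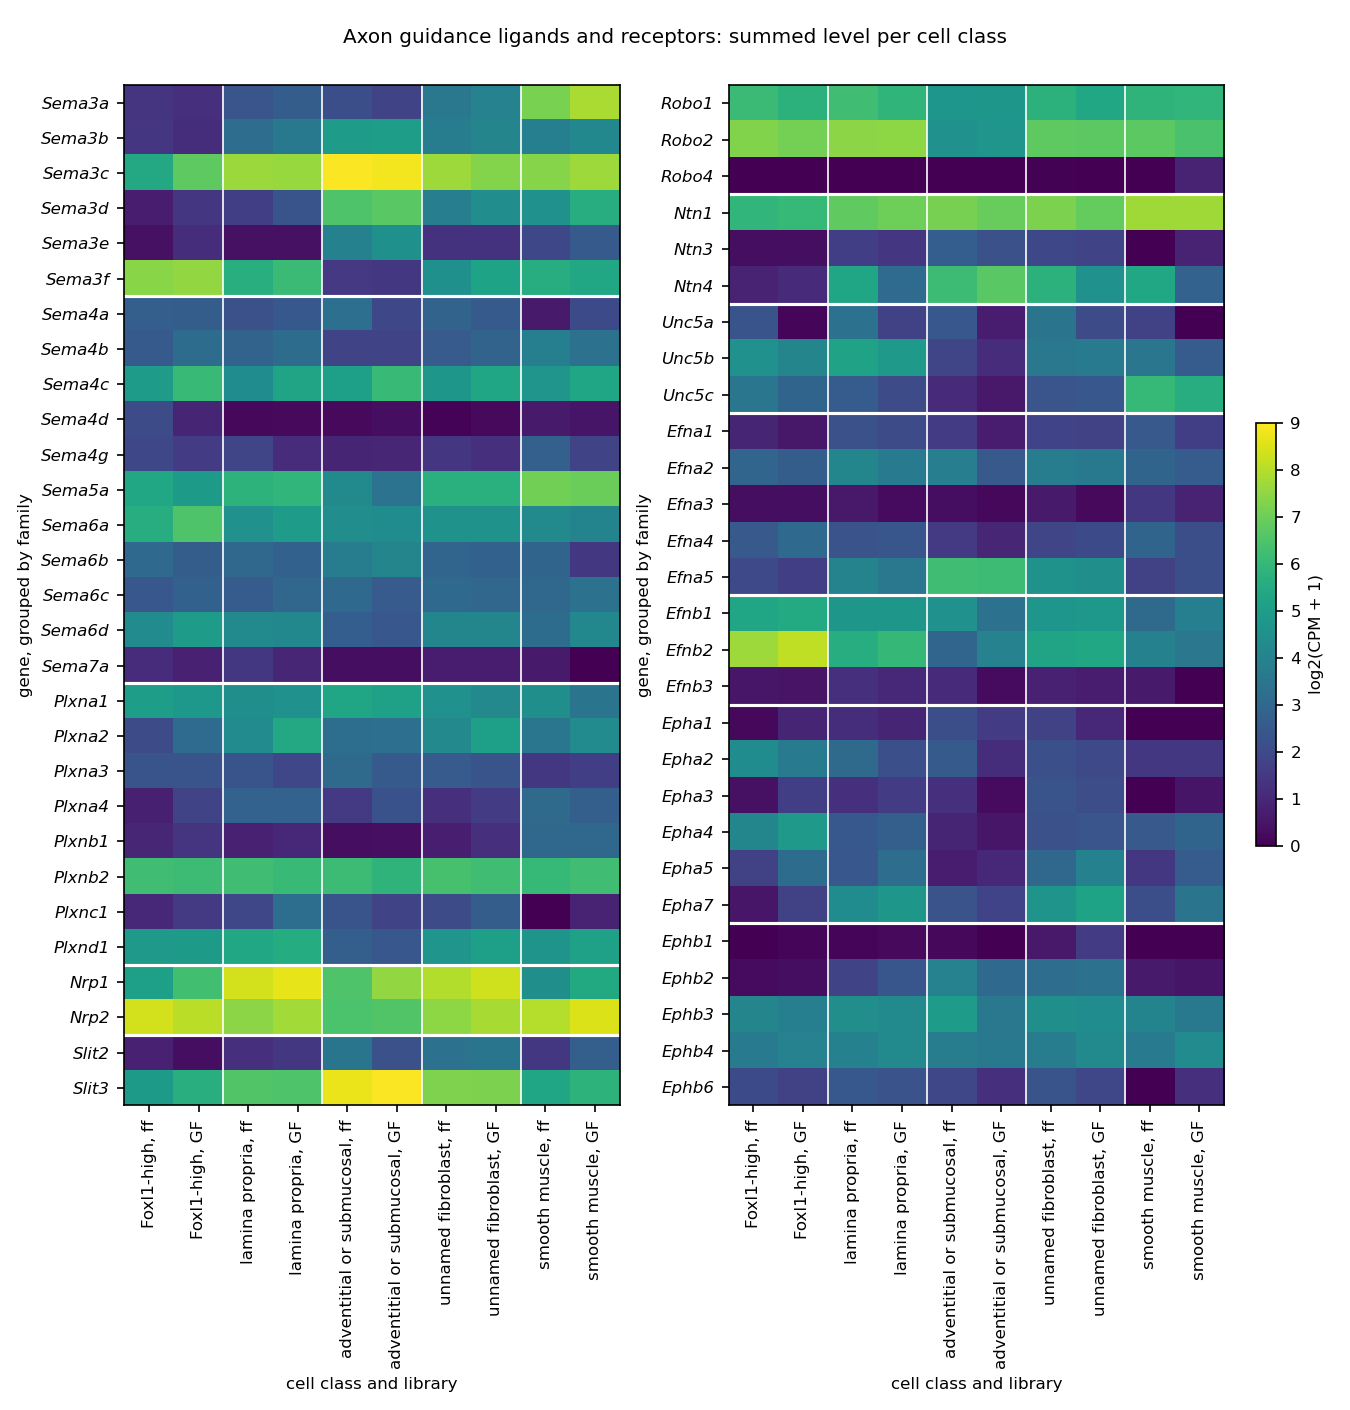
Level of each of the 57 members, as log2(CPM + 1), by cell class and library, with genes grouped by family. Slit3 and Sema3c were highest in adventitial-like cells, Nrp1 in lamina propria-like cells, Efnb2 and Sema3f in Foxl1-high-like cells and Sema3a in smooth muscle-like cells.

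Foxl1-high-like cells, named for a transcription factor of the cells that lie against the epithelium, differed from other fibroblasts above all in their secreted ligands. Foxl1 itself stood at 54.9 and 89.7 CPM in these cells. Smooth muscle-like cells, which are not part of this comparison, had 50.6 and 66.5 CPM. Of 11 secreted ligands, 10 were at least 1.5-fold lower in Foxl1-high-like cells in both libraries, 1 (Sema3f) was that much higher, and 0 were neither. Of 16 membrane-bound ligands 2 were higher, 3 lower and 11 neither, and of 25 receptors 3 were higher, 6 lower and 16 neither. Over all families, 6 of 52 members were higher in both libraries, against 10.2% of all genes, and 19 were lower, against 11% of all genes. The log2 ratio between Foxl1-high-like and all other fibroblast-like cells had a median of -0.30 and -0.07 over the members and 0.10 and 0.17 over all genes. Ratios were taken after adding 1 CPM, and the intervals beside them without it. Scaling by median of ratios would lower each ratio by 0.12 in ff and 0.19 in GF. Against lamina propria-like cells alone, summed class 3 semaphorins, Sema3f included, were close, at 213 and 299 against 263 and 285 CPM. SLITs (29.9 and 51.1 against 93.7 and 91.7) and netrins (61.4 and 65.6 against 152 and 136) were lower. In GF, Sema3d was lowest in the lamina propria-like Cd36-led cluster (0.642 CPM) and Sema3c in the unnamed Cfd-led (22.8 CPM). Slit3, Ntn1 and Ntn4 were lowest in a Foxl1-high-like cluster in both libraries.

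**Figure D2:**
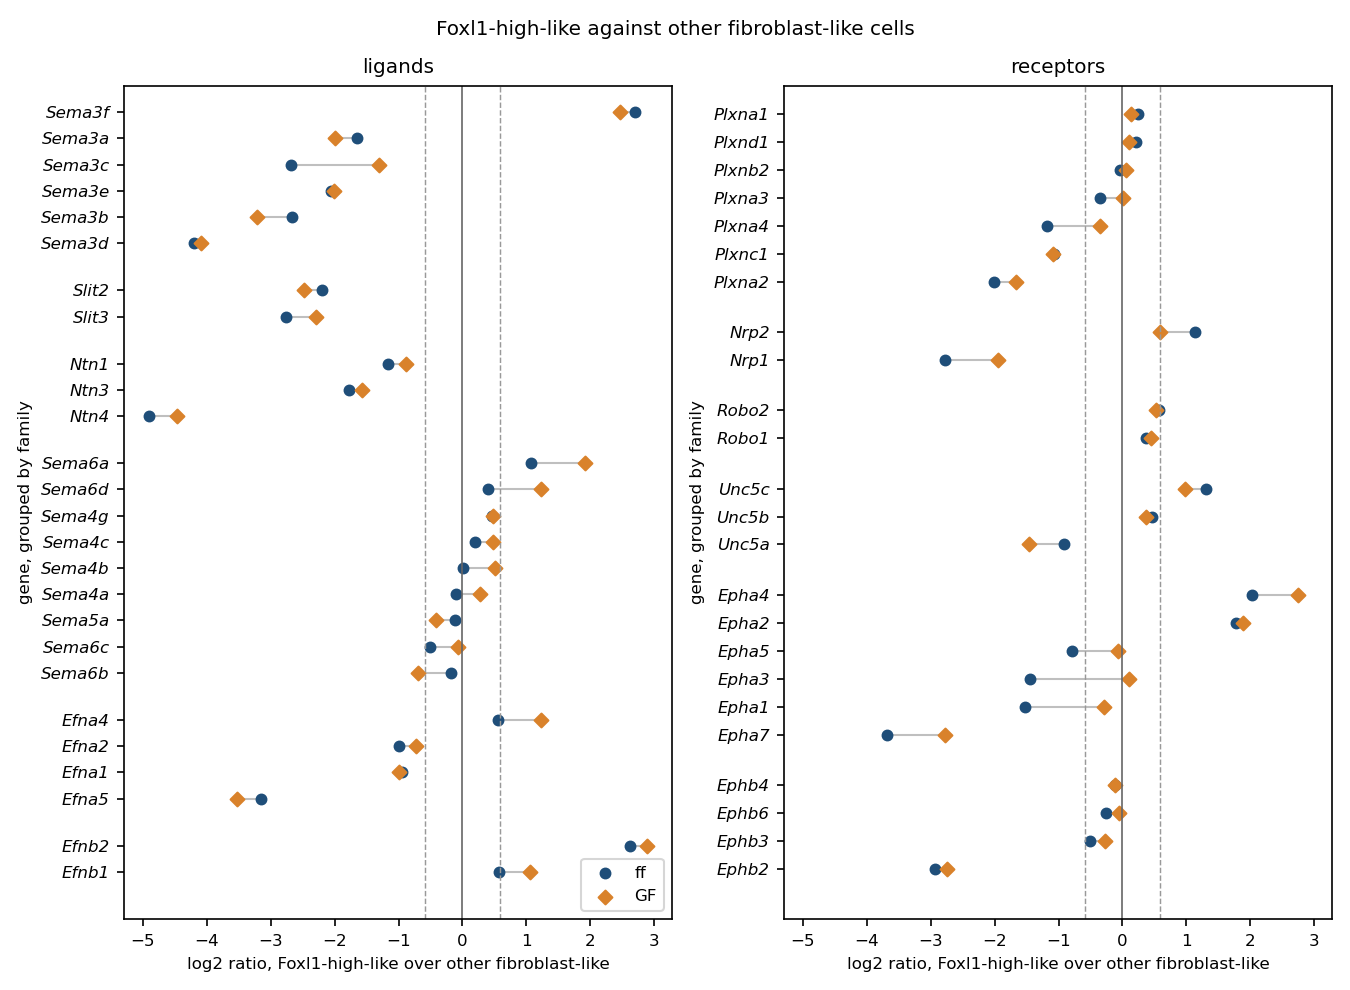
Log2 ratio between Foxl1-high-like and the remaining fibroblast-like cells (1 CPM added) for members with at least 200 UMIs in the pool, ligands on the left and receptors on the right, with ff as circles, GF as diamonds and dashed lines at 1.5-fold. Sema3f, at 2.70 and 2.46, stands alone among the secreted ligands on the right of 0, while Ntn4 lies at -4.90 and -4.46.

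Among the class 3 semaphorins, Sema3f and the other 5 members lay on opposite sides. Sema3f (ENSMUSG00000034684), which encodes a repellent ligand with a preference for neuropilin-2, lies on chromosome 9 from 107681500 to 107710475 (GRCm38, minus strand). It stood at 167 CPM (161 to 173) and 185 CPM (176 to 195) in Foxl1-high-like cells and at 24.9 and 32.8 CPM in the other fibroblast-like cells. The log2 ratios were 2.70 (2.67 to 2.82) and 2.46 (2.40 to 2.59). Lamina propria-like cells came next with 49.7 and 70.1 CPM, and adventitial-like cells had 1.82 and 1.72 CPM. Within the class the Ptprr-led cluster was highest, at 275 and 330 CPM, above the Fgfbp1-led at 151 and 167 and the Wif1-led at 118 and 124 CPM. All 3 clusters thus exceeded every other cluster of their library.

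Its neighbour Sema3b (ENSMUSG00000057969), on the same strand of chromosome 9 from 107597674 to 107609229, had the reverse pattern. It had 1.69 and 1.28 CPM in Foxl1-high-like and 30.8 and 31.5 CPM in adventitial-like cells, and its log2 ratios were -2.66 (-3.79 to -2.75) and -3.22 (-5.05 to -3.10). The other 4 lie on chromosome 5. Sema3c, a ligand that can attract as well as repel, was at 490 CPM (480 to 499) and 461 CPM (453 to 470) in adventitial-like cells and at 42.0 CPM (39.1 to 44.9) and 109 CPM (101 to 116) in Foxl1-high-like cells. The ratios of -2.68 (-2.82 to -2.61) and -1.31 (-1.42 to -1.22) differed between the libraries, since the Foxl1-high-like level was higher in GF. Sema3d had 90.5 and 102 CPM in adventitial-like cells and 0.667 and 1.66 CPM in Foxl1-high-like cells, with ratios of -4.20 (-6.39 to -4.70) and -4.08 (-5.64 to -3.96).

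Sema3e, which binds plexin-D1 without needing a neuropilin, was most plentiful in 1 adventitial cluster. The Efhd1-led cluster had 31.5 and 49.2 CPM, the Gap43-led 14.7 and 9.5 CPM, and no other cluster more than the 9.01 CPM of the GF Hoxb2-led cells. Its Foxl1-high-like ratios were -2.06 and -2.01, the latter -1.01 without the Fgfbp1-led cluster. Sema3a, the classical growth cone-collapsing ligand, was instead highest in smooth muscle-like cells, at 146 CPM (128 to 165) and 233 CPM (214 to 254), and no fibroblast-like cluster passed 21.6 CPM. Its Foxl1-high-like level was 1.59 and 1.40 CPM, with ratios of -1.65 and -1.99 (-0.78 in ff without the Wif1-led and -0.92 in GF without the Fgfbp1-led cluster), so these cells did not share it with smooth muscle-like cells although they held more smooth muscle marker RNA than other fibroblast-like classes (given below with Unc5c).

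The SLITs and netrins were all lower in Foxl1-high-like cells. Slit3 (ENSMUSG00000056427, chromosome 11, 35121224 to 35708507, plus strand) stood at 29.1 CPM (26.7 to 31.6) and 50.8 CPM (45.9 to 56.1) there, against 422 CPM (414 to 431) and 498 CPM (489 to 506) in adventitial-like cells. The log2 ratios against all other fibroblast-like cells were -2.77 (-2.93 to -2.69) and -2.29 (-2.46 to -2.17). All 4 adventitial-like clusters lay between 352 and 472 CPM in ff and between 367 and 559 CPM in GF, above every other cluster. The Myoc-led cluster was next with 261 and 308 CPM, and the Ptprr-led was the lowest with 6.12 and 17.2 CPM. Slit2 was scarcer, with 0.769 and 0.255 CPM in Foxl1-high-like and 10.4 and 3.66 CPM in adventitial-like cells, and ratios of -2.20 and -2.48.

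Ntn4 (ENSMUSG00000020019, chromosome 10, 93640681 to 93747207, plus strand), a netrin of basement membranes, had the lowest mean ratio of all members over the libraries. Foxl1-high-like cells had 0.821 CPM (0.469 to 1.33) and 1.15 CPM (0.525 to 2.18), from 16 and 9 UMIs, and the other fibroblast-like cells 53.4 and 46.3 CPM. The log2 ratios of -4.90 and -4.46 were -3.60 and -3.03 with called doublets kept. Ntn1, the founding netrin, differed less, with 60.3 and 64.2 CPM in Foxl1-high-like cells and ratios of -1.16 and -0.89. Among the larger mesenchymal classes its highest level was in smooth muscle-like cells, at 210 CPM in each library. The small Cajal-like cluster (18 ff and 25 GF cells) had 279 CPM (210 to 364) and 133 CPM.

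Membrane-bound ligands were split, and the ephrin Efnb2 had the highest mean ratio of all members over the libraries. Efnb2 (ENSMUSG00000001300, chromosome 8, 8617434 to 8661242, minus strand) encodes ephrin-B2, a ligand of EphB receptors and EphA4 that can also signal into the cell that carries it. It stood at 204 CPM (197 to 210) and 279 CPM (268 to 291) in Foxl1-high-like cells, 36.8 and 40.1 CPM in unnamed fibroblast-like, 47.8 and 62.0 in lamina propria-like and 6.70 and 15 CPM in adventitial-like cells. The log2 ratios over the other fibroblast-like cells were 2.62 (2.58 to 2.72) and 2.89 (2.84 to 3.0). Within the class the order differed from that of Sema3f: the Fgfbp1-led cluster had 312 and 329 CPM, the Wif1-led 244 and 194 and the Ptprr-led 85.2 and 82.3 CPM. In GF the Ptprr-led level lay under that of the lamina propria-like Spock3-led cluster, with 95.1 CPM. Without the Fgfbp1-led cluster the GF ratio of Efnb2 was 1.81.

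The bases before the start of 4 members are shown because these genes had the highest and the lowest Foxl1-high-like ratios among those of the named genes whose single RefSeq promoter entry lies wholly before the annotated gene. Each is 250 bases of GRCm38.p6, read 5' to 3' on the gene's strand. Capitals mark 3 motifs, searched on both strands. The GC box was searched as GGGCGG. The box bound by the TATA-binding protein was searched as TATAAA. A core that forkhead proteins such as FOXL1 can bind was searched as TGTTTA.
Efnb2, chr8:8661243-8661492, minus strand: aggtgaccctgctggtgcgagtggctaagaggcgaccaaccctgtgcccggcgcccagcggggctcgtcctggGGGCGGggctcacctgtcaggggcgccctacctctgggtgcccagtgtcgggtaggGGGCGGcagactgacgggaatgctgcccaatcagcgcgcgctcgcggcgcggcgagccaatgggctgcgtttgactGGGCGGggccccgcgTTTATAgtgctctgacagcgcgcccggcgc
Epha4, chr1:77515089-77515338, minus strand: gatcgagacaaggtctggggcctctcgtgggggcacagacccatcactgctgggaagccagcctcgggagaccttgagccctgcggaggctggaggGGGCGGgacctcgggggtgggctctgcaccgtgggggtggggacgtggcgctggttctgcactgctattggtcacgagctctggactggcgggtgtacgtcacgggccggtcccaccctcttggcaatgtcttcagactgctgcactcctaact
Efna5, chr17:62881318-62881567, minus strand: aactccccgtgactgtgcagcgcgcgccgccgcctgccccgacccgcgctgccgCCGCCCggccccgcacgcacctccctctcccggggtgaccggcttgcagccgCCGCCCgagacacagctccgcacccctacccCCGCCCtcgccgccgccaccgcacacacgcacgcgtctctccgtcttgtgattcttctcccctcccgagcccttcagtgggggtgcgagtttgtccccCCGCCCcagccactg
Sema3d, chr5:12382916-12383165, plus strand: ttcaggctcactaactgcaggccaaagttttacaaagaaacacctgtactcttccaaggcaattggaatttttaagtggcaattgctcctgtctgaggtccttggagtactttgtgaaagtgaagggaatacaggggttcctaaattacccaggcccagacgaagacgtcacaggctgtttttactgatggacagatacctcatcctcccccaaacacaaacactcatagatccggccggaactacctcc
GC boxes were found 3 times before Efnb2, 1 time before Epha4 and 4 times before Efna5, and 0 times before Sema3d, and Efnb2 had 1 TATA box. The forkhead core was in none of the 4. RefSeq entries matched 50 of the 57 members, with 66 promoters. Of these, 1 (1.52%) held the forkhead core, against 12% of all 32851 promoters, 48 (72.7%) a GC box, against 32.7%, and 2 (3.03%) a TATA box, against 12.4%. These are matches of letters in these windows only.

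Other membrane-bound ligands had smaller differences or went the other way. Efnb1, which like Efnb2 binds EphB receptors, had 37.8 and 44.8 CPM in Foxl1-high-like cells against 24.9 and 20.9 CPM. Its ratios of 0.58 and 1.06 rested on the Fgfbp1-led cluster in GF (54.1 CPM, with 24.1 in the Wif1-led and 11.8 in the Ptprr-led), and without that cluster the GF ratio was -0.27. In ff the ratio was -0.01 without the Wif1-led cluster. Efna4, an A-type ephrin, had 4.67 and 7.53 CPM against 2.87 and 2.64 CPM (0.55 and 1.23). Efna5, another A-type ephrin, was at 74.5 and 71.2 CPM in adventitial-like cells and at 2.92 and 2.17 CPM in Foxl1-high-like cells, with ratios of -3.15 (-3.94 to -3.15) and -3.53 (-4.82 to -3.36). Among the larger mesenchymal classes Efna2 was highest in lamina propria-like cells, with 16.4 and 11.9 CPM. It had ratios of -1.0 and -0.72, the latter -0.10 without the Fgfbp1-led cluster.

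Of the membrane semaphorins, Sema6a, a ligand of A-type plexins, was the one at least 1.5-fold higher in both libraries. It had 47.6 CPM (44.6 to 50.8) and 91.3 CPM (84.7 to 98.2) in Foxl1-high-like cells against 22.1 and 23.4 CPM, ratios of 1.07 (0.99 to 1.22) and 1.92 (1.84 to 2.09). Sema6d stood at 0.40 and 1.23, with 19.3 and 30.8 CPM. Sema5a, with 40.7 and 29.1 CPM in Foxl1-high-like cells, and Sema4c, with 29.9 and 67.0 CPM, had ratios under 1.5-fold in both libraries. By class Sema5a was highest in smooth muscle-like cells at 134 and 125 CPM, but in ff the unnamed Cfd-led cluster had 171 CPM. Sema4a stood at -0.11 and 0.28. Sema4d, named after its values were seen, was highest in 1 mesenchymal cluster and in ff nearly confined to it. The Ptprr-led cells had 10.3 and 5.42 CPM, and no other of the 17 clusters passed 2.25 CPM. The Ptprr-led level rested on 59 ff UMIs and 6 GF UMIs, and lymphocytes, which express the gene, had 36.3 and 58.1 CPM. In GF the larger mesenchymal classes together held 24 UMIs, so most lay outside the Ptprr-led cluster.

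Among the receptors, the neuropilins lay on opposite sides. Nrp1 (ENSMUSG00000025810, chromosome 8, 128358604 to 128503363, plus strand) encodes neuropilin-1, which also serves VEGF-A. It had 33.0 and 76.0 CPM in Foxl1-high-like cells, 246 and 327 CPM in unnamed fibroblast-like and 91.3 and 184 CPM in adventitial-like cells. Lamina propria-like cells held the most, 335 CPM (328 to 342) and 402 CPM (393 to 411). The log2 ratios were -2.78 (-2.93 to -2.70) and -1.95 (-2.08 to -1.85). Nrp2, the neuropilin preferred by SEMA3F, had 337 and 266 CPM in Foxl1-high-like cells and ratios of 1.14 (1.10 to 1.18) and 0.58 (0.52 to 0.65), so it fell just short of 1.5-fold in GF. The 3 Foxl1-high-like clusters held 237 to 431 CPM of Nrp2 and 29.7 to 117 CPM of Nrp1 over both libraries, and smooth muscle-like cells 258 and 368 CPM of Nrp2 and 21.5 and 43.0 CPM of Nrp1. In GF the unnamed Cfd-led cluster held the most Nrp2 of the clusters compared, 465 CPM. The small Cajal-like cluster had 346 and 394 CPM of Nrp2.

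Of the plexins, the signalling partners of neuropilins and direct receptors of membrane semaphorins, Plxnb2 was the most even over the clusters and others were not. Plxnb2 ranged from 61.4 to 99.9 CPM over the 17 ff clusters and from 47.6 to 88.5 CPM over the GF clusters, and its Foxl1-high-like ratios were -0.04 and 0.06. Plxnd1, the receptor of SEMA3E, was low in adventitial-like cells, at 5.61 and 4.48 CPM, and stood between 24.4 and 46.6 CPM in every other class shown. Plxna2, a partner of neuropilins and a receptor of SEMA6A, had ratios of -2.0 and -1.67, with 3.23 and 7.79 CPM in Foxl1-high-like and 19.4 and 42.6 CPM in lamina propria-like cells.

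The SLIT receptors were low in the adventitial-like cells that held most Slit3. Robo2 had 155 and 137 CPM in Foxl1-high-like, 170 CPM (165 to 175) and 176 CPM (170 to 182) in lamina propria-like and 22.6 CPM (20.6 to 24.6) and 24.6 CPM (22.8 to 26.6) in adventitial-like cells. Robo1 had 68.5 and 54.5, 75.4 and 58.6, and 25.8 and 26.4 CPM in the same classes. Against all other fibroblast-like cells both stayed under 1.5-fold, Robo2 with 0.57 and 0.52 and Robo1 with 0.37 and 0.45. Lymphocytes had 23.9 CPM (14.8 to 36.5) of Robo2 in ff and 1.67 CPM in GF. The ff adventitial-like level of Robo2 is therefore not told apart from that of lymphocytes.

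Among the netrin receptors, Unc5c, a repulsive netrin receptor, was higher in Foxl1-high-like cells, with 10.6 and 6.51 CPM and ratios of 1.31 (1.27 to 1.78) and 0.98 (0.75 to 1.66). It was highest in smooth muscle-like cells, at 63.9 CPM (52.6 to 77.1) and 47.4 CPM (38.9 to 57.2). The 7 smooth muscle markers summed to 1101 and 1317 CPM in Foxl1-high-like, 160 and 157 in lamina propria-like, 78.4 and 105 in adventitial-like and 17817 and 18370 CPM in smooth muscle-like cells, with 0 of the 7 at 0, and the 6 pericyte markers to 148 and 184 CPM in Foxl1-high-like cells. Their part in the Unc5c difference was not tested. Without the Wif1-led cluster the ff ratio of Unc5c was 0.13. Unc5b had 22.6 and 16.1 CPM in Foxl1-high-like cells, but 58.9 and 69.6 CPM in the Ptprr-led cluster, close to the 65.9 and 57.8 CPM of the lamina propria-like Cd36-led cluster, and at most 7.67 CPM in the other Foxl1-high-like clusters. The netrin receptor gene Dcc had 5 UMIs in both tables together, whereas Neo1, which encodes neogenin, had 55.9 and 43.0 CPM in the pool.

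Of the Eph receptors, Epha4 and Epha2 were higher in Foxl1-high-like cells and Epha7 and Ephb2 lower. Epha4, which binds ephrins of both types, had 16.4 CPM (14.7 to 18.3) and 27.3 CPM (23.8 to 31.2) against 3.28 and 3.23 CPM, ratios of 2.02 and 2.74. It was not limited to the class, since the unnamed Cfd-led cluster had 25 and 20.6 CPM. The small Cajal-like cluster had 20.7 CPM in ff and 172 CPM (120 to 240) in GF, from 4 and 35 UMIs. Epha2 had 19.8 CPM (17.9 to 21.9) and 12 CPM (9.70 to 14.7) against 5.08 and 2.53 CPM, ratios of 1.77 and 1.88, and was highest in the Ptprr-led cluster with 27.5 and 28.0 CPM. Epha7 stood at 0.462 and 2.43 CPM in Foxl1-high-like cells and at 24.5 and 36.4 CPM in unnamed fibroblast-like cells (ratios -3.69 and -2.78). Epha5 stood at -0.80 and -0.07. Ephb2, a receptor of ephrin-B2, had 0.205 and 0.255 CPM in Foxl1-high-like and 14.8 and 7.35 CPM in adventitial-like cells (ratios -2.93 and -2.75), from 4 and 2 UMIs in the class. Ephb4, the ephrin-B2 receptor known from veins, had 12.4 and 15.1 CPM in Foxl1-high-like cells with ratios of -0.11 in each library, and Ephb3 stood at -0.51 and -0.27.

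Of 14 pairs compared, some ligands and receptors were high in different clusters and others showed little order. Over the 17 clusters, the Spearman correlation of Slit3 with Robo1 was -0.76 in ff and -0.79 in GF, and with Robo2 -0.66 and -0.67. Sema3c with Nrp2 gave -0.75 and -0.62, Sema3e with Plxnd1 -0.73 and -0.71, and Efnb2 with Ephb2 -0.88 and -0.56. Sema3f with Nrp2 went the other way, at 0.58 and 0.47, and Efnb2 with Sema3f, both ligands, gave 0.82 and 0.81. Little order was seen for Efnb2 with its other receptor Ephb4 (-0.01 and 0.29), Sema3c with Nrp1 (0.08 and -0.04), Sema3a with Nrp1 (0.20 and 0.36), Sema6a with Plxna2 (-0.23 and -0.11), Efna5 with Epha7 (0.03 and -0.25), Ntn1 with Unc5b (-0.13 and -0.23) and Nrp1 with Nrp2 (-0.05 and 0.02). These are descriptions over clusters of 1 library each, whose points share library, depth and clustering, and the pairs were chosen after values had been seen.

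**Figure D3:**
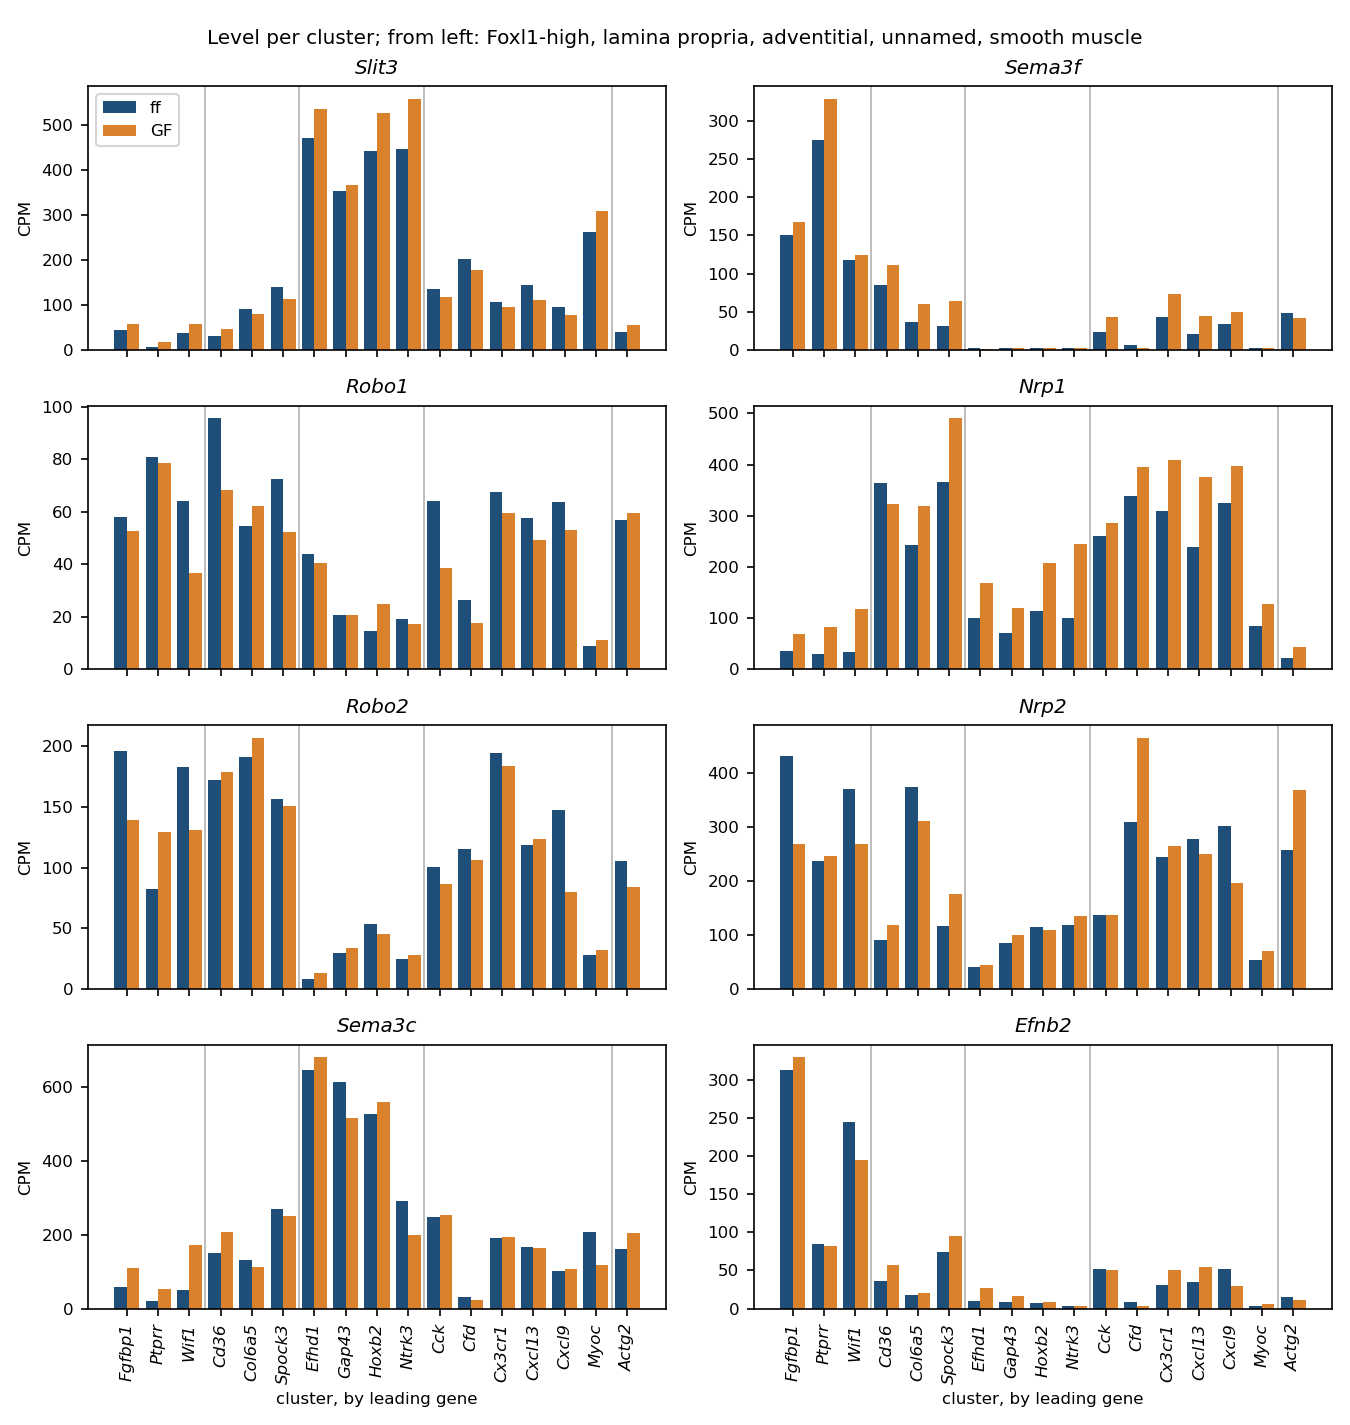
CPM of 8 members in the 17 larger mesenchymal clusters, in ff and GF, ordered by class from Foxl1-high-like on the left to smooth muscle-like on the right. Slit3 and Sema3c peak in the adventitial-like clusters, where Robo1 and Robo2 are low, and Sema3f and Efnb2 peak in the Foxl1-high-like clusters.

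RNA free in the droplets gives UMIs in cells that do not express a gene. Lymphocytes (107 ff cells and 1230 GF cells, median totals of 4480 and 2582.5 UMIs) served as a reference for such UMIs. Lymphocytes of ff had 35.2 CPM of Slit3 and those of GF 3.06 CPM, and for Sema3c the levels were 46.6 CPM (33.4 to 63.2) and 3.89 CPM (2.13 to 6.53). The ff levels of Slit3, Sema3c and Nrp1 (42.0 CPM in lymphocytes) in Foxl1-high-like cells were at or below these. No expression is read from them there, though this reference cannot settle it. The 37 Nrp1 UMIs of ff lymphocytes lay in 12.1% of the cells, and free RNA was not told apart from doublets. Nor is the ff lymphocyte level a floor: Epha7 had 5.68 CPM (1.84 to 13.3) there and 0.462 CPM (0.211 to 0.876) in ff Foxl1-high-like cells. After thinning each cell to 2000 UMIs, which left out 223 and 392 cells of the pool, 29.6% and 35.4% of Foxl1-high-like cells held an Efnb2 UMI (64.6% and 70.7% unthinned), against 1.12% and 2.34% of adventitial-like cells (4.25% and 7.67%). In lymphocytes 0 of 107 ff cells and 0.195% of 1025 GF cells did (4.67% and 0.569% unthinned), and 0 of 107 allows a share of up to 3.39%. For Slit3 the thinned shares were 5.80% and 9.44% in Foxl1-high-like cells (19.7% and 28.1% unthinned), 54.0% and 60.7% in adventitial-like cells (87.7% and 88.9%) and 3.74% and 0.585% in lymphocytes (11.2% and 0.732%).

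Other genes of the pathway, receptors and signalling proteins in a list of 52 that are no members, were counted in the same way. In Foxl1-high-like cells 8 of 44 measured were at least 1.5-fold higher in both libraries, against 10.2% of all genes, and 13 lower, against 11%. The 3 with the highest mean ratio were Rgs3, a regulator of G protein signalling that can bind B-type ephrins (1.57 and 1.60), Mical2, of the family that links plexins to actin (1.37 and 1.77), and Neo1 (1.28 and 1.62). The lowest were Flrt2 (-4.70 and -5.14) and Flrt3 (-3.92 and -4.35), adhesion proteins that bind UNC5 receptors, and the actin-binding Ablim1 (-3.35 and -3.67). Between the libraries 2 of 48 were at least 1.5-fold higher in GF and 1 that much lower, against 5.01% and 5.24% of all genes.

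Between the libraries most members differed little. In the pool, 47 of 56 lay within 1.5-fold, 7 were at least 1.5-fold higher in GF (Sema3e, Epha5, Sema4c, Plxna2, Plxnc1, Sema3d and Sema3a), against 5.01% of all genes, and 2 (Unc5a and Epha2) were that much lower, against 5.24%. On the log2 scale the median GF to ff ratio stood at -0.08 for the members and 0.02 for all genes. By role, 3 of 11 secreted ligands, 1 of 19 membrane-bound ligands and 3 of 26 receptors were higher, and the 2 lower ones are receptors.

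**Figure D4:**
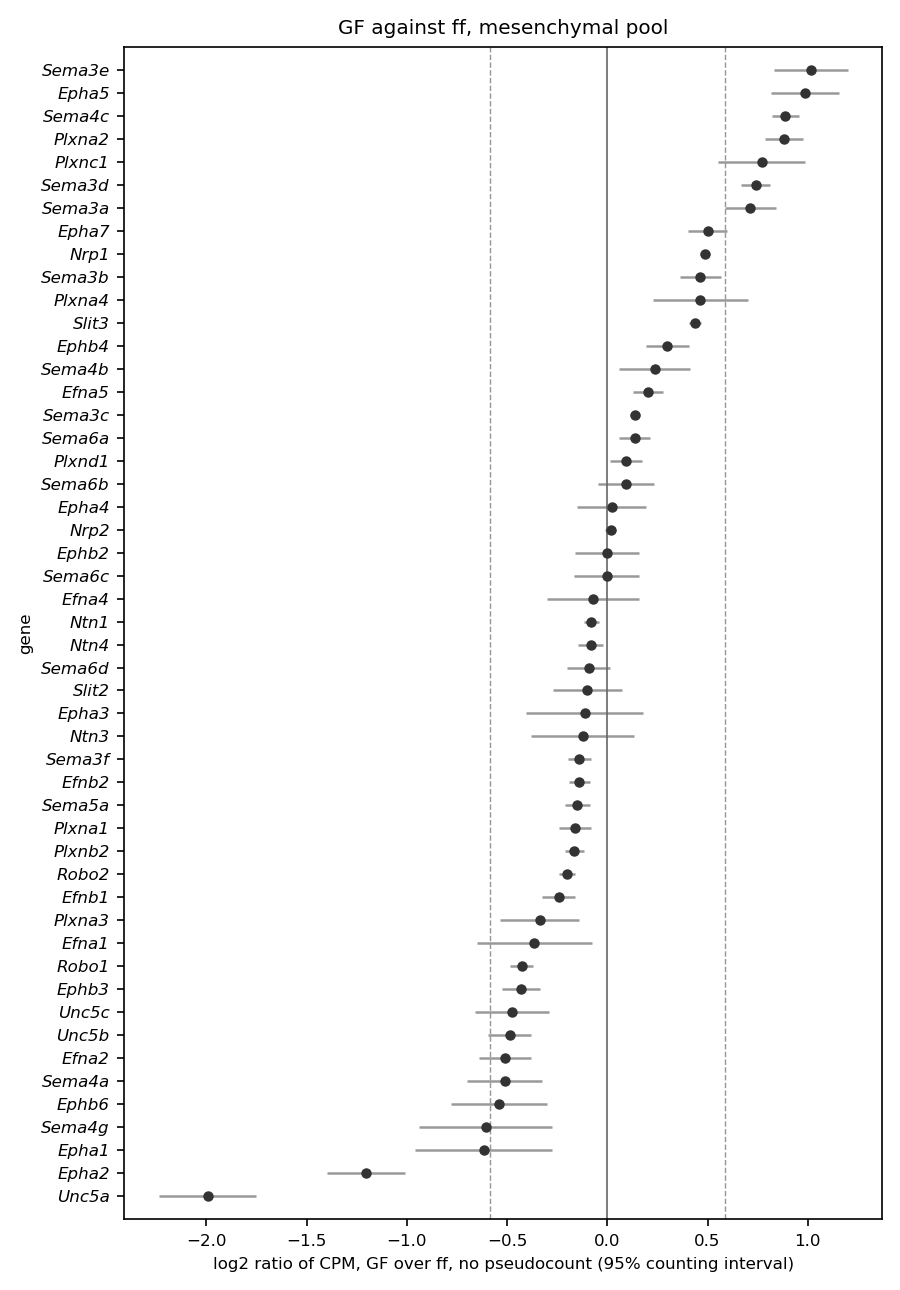
Log2 ratio of CPM in the mesenchymal pool, GF over ff without pseudocount, for members with at least 200 UMIs, with 95% counting intervals and dashed lines at 1.5-fold. Unc5a and Epha2 stand apart at the low end, and Sema3e, Epha5, Sema4c and Plxna2 lead at the high end.

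Unc5a (ENSMUSG00000025876, chromosome 13, 54949411 to 55006018, plus strand), which encodes a netrin receptor, was lower in GF in every class and cluster compared. The pool had 7.54 CPM (7.03 to 8.07) in ff and 1.90 CPM (1.62 to 2.20) in GF, a log2 ratio of -1.56 (-2.24 to -1.75). By class, ff and GF levels were 9.54 and 2.34 CPM in lamina propria-like, 9.95 and 3.20 in unnamed fibroblast-like, 4.47 and 0.597 in adventitial-like and 4.0 and 0.128 in Foxl1-high-like cells, the last from 78 UMIs and 1 UMI (interval of the log2 ratio -10.29 to -2.45). Unc5a was the 1 member of 32 measured in all 4 fibroblast-like classes that was at least 1.5-fold lower in GF in each, and 0 were that much higher in each. It was lower in 17 of 17 clusters, with intervals that leave out 0 in 12. The ff lymphocytes held 4.54 CPM (1.24 to 11.6), from 4 UMIs, and the GF lymphocytes 0 UMIs. That interval holds the ff level of the pool and of every class, but not the 14.3 CPM of the ff Col6a5-led cluster. At this depth no ff class level of Unc5a is told apart from the lymphocyte level. The part of free RNA in the difference between the libraries was not tested.

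Epha2 was lower in GF by -1.0 (-1.40 to -1.01), with 7.69 and 3.34 CPM in the pool. It was lower in 14 of 17 clusters, with intervals that leave out 0 in 6, and at ff cluster shares the ratio was -0.72. Among the Foxl1-high-like clusters it had 18.4 and 4.60 CPM in the Wif1-led cluster, stood at 27.5 and 28.0 CPM in the Ptprr-led and was higher in the GF cells of the Fgfbp1-led (4.48 and 10.1 CPM). Unc5b (-0.46), Efna2 (-0.47), Sema4a (-0.43) and Robo1 (-0.42) followed within 1.5-fold. Robo1 was lower in GF in 13 of 17 clusters, with intervals that leave out 0 in 6.

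Sema4c (ENSMUSG00000026121, chromosome 1, 36548639 to 36558349, minus strand), a ligand of plexin-B2, was higher in GF in most clusters. The pool had 26.6 CPM (25.7 to 27.6) and 49.3 CPM (47.8 to 50.8), a log2 ratio of 0.86 (0.82 to 0.96). The ratio was 1.14 in Foxl1-high-like, 1.01 in adventitial-like, 0.86 in lamina propria-like, 0.56 in unnamed fibroblast-like and 0.58 in smooth muscle-like cells. It was higher in 14 clusters, in each with an interval that leaves out 0, and lower in the Myoc-led, Cfd-led and Hoxb2-led, where the intervals hold 0. Plxnb2 itself stood at 75.8 and 67.7 CPM in the pool.

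Plxna2 was higher in GF by 0.83 (0.78 to 0.98), with 13.6 and 25.1 CPM, though not in adventitial-like cells (8.43 and 8.66 CPM, 0.03). Epha5 had 4.25 and 8.40 CPM (0.84, 0.81 to 1.15) and was higher in 12 of the 16 clusters with UMIs. The class 3 semaphorins that were higher in GF were those of 1 or a few clusters, whose shares also differed: Sema3e had 3.68 and 7.44 CPM (0.85), Sema3d 24.3 and 40.5 CPM (0.72) and Sema3a 8.37 and 13.7 CPM (0.65). The Efhd1-led cluster, highest in Sema3e, made up 5.44% of the ff pool and 8.27% of the GF pool, and the Actg2-led smooth muscle-like cluster, highest in Sema3a, 1.64% and 2.87%. Where each GF cluster was given its ff share of cells, the ratios were 0.56, 0.46 and 0.37, and those of Sema4c, Plxna2, Epha5 and Unc5a were 0.78, 0.76, 0.66 and -1.63. Sema3a also stood at 0.33 over fibroblast-like cells alone and at 0.29 with a stricter cell filter.

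Some members within 1.5-fold in the pool differed by more inside a class. Nrp1, at 193 CPM (191 to 196) and 271 CPM (267 to 274) in the pool (0.48), was higher in GF by 1.18 in Foxl1-high-like and 1.0 in adventitial-like cells and by 0.26 in lamina propria-like cells, and in 16 of 17 clusters, each with an interval that leaves out 0. The exception was the Cd36-led cluster, with 363 and 324 CPM. Sema3c was higher in GF by 1.35 (1.23 to 1.51) in Foxl1-high-like cells, with 50.2 and 171 CPM in the Wif1-led, 58.8 and 109 in the Fgfbp1-led and 19.4 and 54.2 CPM in the Ptprr-led cluster. In the other fibroblast-like classes it stood between -0.35 and -0.03.

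Ntn4 had nearly equal levels in the 2 pools, 43.6 and 41.2 CPM, and opposite differences beneath them. It was lower in GF by -2.14 (-2.54 to -2.03) in lamina propria-like cells (38.1 and 7.87 CPM), by -1.22 in unnamed fibroblast-like and by -2.54 in smooth muscle-like cells, and higher by 0.54 (0.46 to 0.64) in adventitial-like cells (70.4 and 103 CPM). Of the adventitial-like clusters, the Efhd1-led, with 118 and 208 CPM, and the Gap43-led, with 47.2 and 56.0 CPM, were higher in GF, while the Ntrk3-led had 59.2 and 37.5 and the Hoxb2-led 68.3 and 67.6 CPM. Lymphocytes had 1 ff UMI and 6 GF UMIs of Ntn4, at 1.14 and 1.67 CPM.

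**Figure D5:**
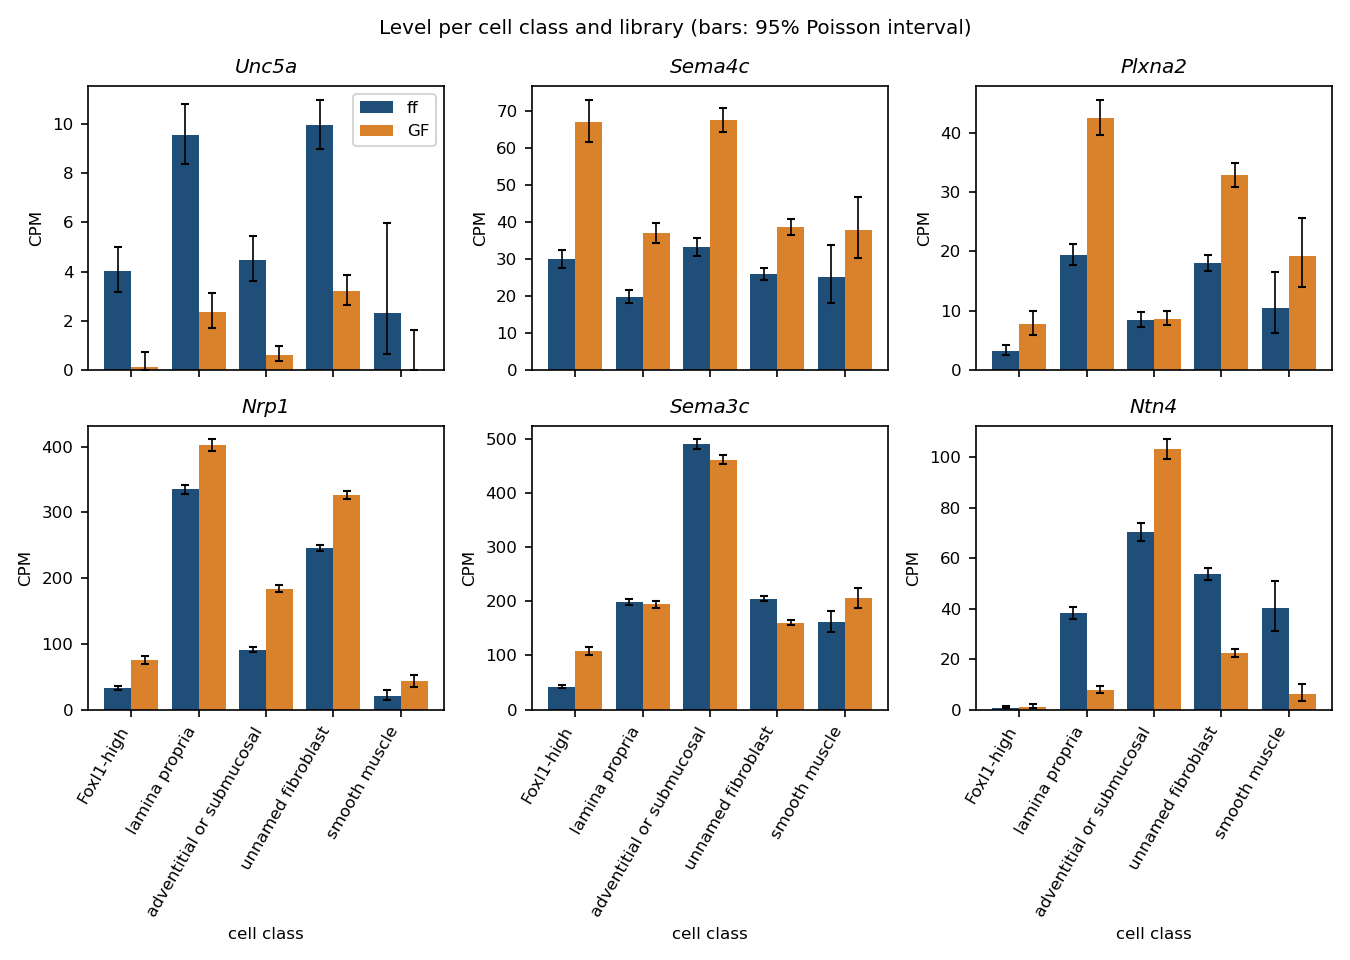
CPM with 95% Poisson intervals of 6 members in the 5 cell classes of ff and GF. Unc5a is lower and Sema4c higher in GF in each class shown, Sema3c differs most in Foxl1-high-like cells, and Ntn4 is lower in GF in lamina propria-like, unnamed fibroblast-like and smooth muscle-like cells but higher in adventitial-like cells.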

How the data were processed

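Per the submitters' processing notes, the authors used Cell Ranger 6.0.0 with the mm10 genome. The deposited tables hold raw UMI counts per Ensembl gene and barcode, with no normalization by the authors: 13704 ff barcodes with 119866589 UMIs (median 8685) and 16388 GF barcodes with 105331294 UMIs (median 6147.5). Members, lists and comparisons were chosen with earlier results of these data known. Coordinates are from GENCODE vM21 (GRCm38).

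Cells with at least 500 genes, 1000 UMIs and at most 10% mitochondrial UMIs were kept (12702 ff, 15066 GF). Scrublet in scanpy 1.11.5 removed 538 (4.24%) and 767 (5.09%) doublets. Cells were clustered with leidenalg 0.10.2 (2000 variable genes without members and pathway genes, each scaled within its library, 30 components, 15 neighbours, resolution 1). A name needed 3 markers at 2-fold, with 1 among the top 20 genes, and these thresholds were set after seeing the data. A pool cell also needed 10 UMIs of fibroblast genes and more of them than of other types' markers (30 of 24818 failed).

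Ratios took 1 CPM as pseudocount. A member was counted as higher or lower at 1.5-fold with at least 50 UMIs, in each library for class against class. With 1 library per group no test was made. The calculation of ratios was tested on simulated data. Named members were the 2 most abundant of each family, the 10 highest and 10 lowest by Foxl1-high-like ratio and the 6 highest and 6 lowest by GF ratio, with at least 200 UMIs for the ratios (37 in all). Genes that share reads with close copies cannot be checked from counts.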

Additional observations from a re-analysis of the deposited data

Results flagged for a closer look

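Signals outside the mesenchymal comparisons came from cells the sort was meant to remove. Lymphocytes held Sema4d, a semaphorin of immune cells, at 36.3 CPM over the 107 ff cells and 58.1 CPM over the 1230 GF cells, above its 0.688 and 0.279 CPM in the mesenchymal pool. Blood endothelium-like cells held Robo4 at 124 CPM (29 UMIs of 30 ff cells) and 274 CPM (38 UMIs of 23 GF cells), whereas the pool held 1 and 2 UMIs.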

How the results depend on the processing

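No paired analysis was possible because each group had 1 library. Of 1369 alternative values of the named members, 1131 moved by less than the counting interval, 237 moved by more and 1 reversed, Efnb1 in Foxl1-high-like GF cells, at -0.27 without the Fgfbp1-led cluster. The ff ratio of Efnb1 without the Wif1-led cluster, given above, changed sign too but is not counted as reversed. The counts of members stayed within 1.5 times except under 2 settings. With a pseudocount of 0.1 CPM, 5 members were lower in GF in place of 2, and 10 higher in Foxl1-high-like cells in place of 6, since a smaller pseudocount leaves the ratios of scarce genes larger. With GF clusters weighted by ff shares, 4 members were higher in GF in place of 7. At Leiden resolution 2 the Fgfbp1-led cluster took the lamina propria-like name, and its count as Foxl1-high-like there, the Foxl1-high-like comparisons without each of its clusters and those without the Cx3cr1-led cluster were chosen after seeing the data. Median-of-ratios scaling shifts GF over ff by 0.03. Depth limits members under 1 CPM, and the few smooth muscle-like cells (195 and 370) limit values there.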

Other observations

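The few other stromal cells left by the sort held members at levels the mesenchymal pool as a whole did not reach. Blood endothelium-like cells (30 ff and 23 GF) had 818 CPM of Nrp1 in ff and 705 CPM in GF, and 193 and 360 CPM of Plxnd1. Lymphatic endothelium-like cells (41 and 54) had 334 and 611 CPM of Nrp2, known from lymphatic vessels, 428 and 286 CPM of Sema3d, 391 and 380 CPM of Ntn1 and 253 and 400 CPM of Sema6a. Their ff level of Nrp2 was not above the 337 CPM of ff Foxl1-high-like cells, which are part of the pool. Enteric glia-like cells (6 and 15) had 10 and 26 UMIs of Sema3b, or 387 CPM (186 to 712) and 430 CPM (281 to 630), against 13.4 and 18.5 CPM in the pool.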
